A study of Mus musculus with 9 samples.

Results

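The circadian clock genes of the liver were read from RNA-Seq tables of 9 male C57BL/6J mice, a common inbred laboratory strain. The members were 10 named genes, Arntl, Clock, Npas2, Per1, Per2, Per3, Cry1, Nr1d1, Dbp and Ciart, and each had to be above 0 in at least 1 liver, which all 10 were, out of 23183 genes in the tables. They were read because the time of day at which the livers were collected is not stated for any mouse. The 9 mice formed 3 groups of 3, with 1 library per mouse. The ND mice received a normal diet. The HFD mice received a high-fat diet that induced obesity. The PRF 50 mice received the same high-fat diet and, during its later weeks, a daily oral dose of 50 mg/kg of PRF, a hexane fraction of Citrus sunki (Jinkyool) leaf rich in polymethoxyflavones such as tangeretin and nobiletin. All mice were labelled as postnatal day 100 and were kept under a light/dark cycle. They were fasted and anaesthetized with isoflurane before tissues were taken. PRF was given in carboxymethyl cellulose, and whether the ND and HFD mice received this vehicle is not stated. An oral glucose tolerance test was run on the final day of the experiment, and its timing relative to liver collection is not stated. The numbers of the mice (6, 7 and 9 for ND, 1, 2 and 3 for HFD, and 3, 9 and 10 for PRF 50) name animals and pair none of them.

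The hepatic clock is a feedback loop of transcription. BMAL1 (encoded by Arntl) pairs with CLOCK or NPAS2 and activates genes through E-box sequences, and among these genes are the repressors PER, CRY, CIART and REV-ERB alpha (encoded by Nr1d1), which then lower the activity or the level of the activators. In the mouse liver, Arntl and Npas2 peak around the change from dark to light, Nr1d1 peaks in the middle of the light phase, Dbp and the Per genes peak later in the light phase or early in the dark, and Cry1 peaks late in the dark, so the balance of these genes depends on the hour of collection and on the hours of feeding.

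Values were read as log2(FPKM + 1), where FPKM is fragments per kilobase of transcript scaled to library size. The number of reads per library is unknown here, but the low values gave relative depths between 0.953 (PRF 50 mouse 10) and 1.61 (HFD mouse 3) of that of HFD mouse 1. Between 14372 and 14980 genes were above 0 in a liver. The tissue label was checked against 12 hepatocyte markers, of which 11 were above 0 and Alb was listed at 0 in all 9 livers, so a value of 0 in these tables cannot be read as absence of the transcript. The summed hepatocyte markers reached 55764, 40973 and 37143 FPKM in ND mice 6, 7 and 9, 54043, 45790 and 43289 FPKM in HFD mice 1, 2 and 3, and 41104, 43239 and 40925 FPKM in PRF 50 mice 3, 9 and 10, with Apoa2 (a high-density lipoprotein component) as the most abundant. In bulk liver, fewer cells of a type and less RNA per cell cannot be told apart, and this holds for every difference given here.

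Clock factors act through short DNA motifs near gene starts, and the start regions of the members were read for them. RefSeq start windows on GRCm38.p6, from 250 bases before to 50 bases after a gene's start, were found for 9 of the 10 members (13 windows in all). They were searched on both strands for CACGTG (the E-box), TTATGNAA (the D-box, bound by DBP and NFIL3) and AGGTCA (the core of the elements bound by REV-ERB), and no motif contains another. Of 32851 RefSeq windows, 7.15% held the E-box, 3.38% the D-box and 16.3% the REV-ERB core. Among the members, 3 genes had an E-box (Ciart, Cry1 and Per1), 2 had a D-box (Per1 and Per3) and 3 had the REV-ERB core (Arntl, Clock and Per1). These counts are of genes, and the shares above are of windows. Each of these genes had its matches in 1 window only, so the counts also hold for the 13 windows. Ciart (chr3:95882179-95882478, minus strand) had 3 E-boxes, which began 116, 58 and 44 bases before its start. Cry1 (chr10:85185005-85185304, minus strand) had 1 E-box, 60 bases before the start. The first window of Per1 (chr11:69098699-69098998, plus strand) had all of the motifs, with the E-box 166, the REV-ERB core 137 and the D-box 24 bases before the start. Per3 (chr4:151044616-151044915, minus strand) had 2 D-boxes, 205 and 158 bases before the start. The second window of Arntl (chr7:113207261-113207560, plus strand) had the REV-ERB core 31 bases after the start. Capitals mark the motifs, each sequence runs 5′ to 3′ along the gene, and a match is a description of the letters and not a measured binding site. The windows of Npas2, Nr1d1 and Dbp held none of these letters, and Per2 was not among the windows.
Ciart: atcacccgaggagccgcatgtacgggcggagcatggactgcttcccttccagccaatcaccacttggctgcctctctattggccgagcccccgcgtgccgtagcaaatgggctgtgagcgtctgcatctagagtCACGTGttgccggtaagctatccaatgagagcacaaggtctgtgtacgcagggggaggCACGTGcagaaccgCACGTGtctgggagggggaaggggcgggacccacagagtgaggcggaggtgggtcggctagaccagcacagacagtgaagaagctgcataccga
Cry1: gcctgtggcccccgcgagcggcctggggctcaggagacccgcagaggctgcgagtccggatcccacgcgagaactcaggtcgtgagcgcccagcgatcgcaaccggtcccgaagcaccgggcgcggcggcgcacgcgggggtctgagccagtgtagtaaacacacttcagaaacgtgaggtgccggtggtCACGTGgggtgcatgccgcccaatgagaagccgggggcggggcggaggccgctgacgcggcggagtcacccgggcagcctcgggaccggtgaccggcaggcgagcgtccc
Per1, first window: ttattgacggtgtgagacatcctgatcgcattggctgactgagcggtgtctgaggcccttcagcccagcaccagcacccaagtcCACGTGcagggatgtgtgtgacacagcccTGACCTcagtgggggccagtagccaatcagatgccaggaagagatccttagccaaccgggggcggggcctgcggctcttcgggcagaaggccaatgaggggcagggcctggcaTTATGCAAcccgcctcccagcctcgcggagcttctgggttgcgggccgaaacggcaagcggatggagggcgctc
Per3: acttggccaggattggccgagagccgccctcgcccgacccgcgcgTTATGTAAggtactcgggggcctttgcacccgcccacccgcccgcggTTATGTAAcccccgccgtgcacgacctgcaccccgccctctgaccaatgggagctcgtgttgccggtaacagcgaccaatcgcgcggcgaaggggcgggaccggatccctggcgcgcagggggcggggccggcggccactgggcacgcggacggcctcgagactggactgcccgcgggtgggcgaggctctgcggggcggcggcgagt
Arntl, second window: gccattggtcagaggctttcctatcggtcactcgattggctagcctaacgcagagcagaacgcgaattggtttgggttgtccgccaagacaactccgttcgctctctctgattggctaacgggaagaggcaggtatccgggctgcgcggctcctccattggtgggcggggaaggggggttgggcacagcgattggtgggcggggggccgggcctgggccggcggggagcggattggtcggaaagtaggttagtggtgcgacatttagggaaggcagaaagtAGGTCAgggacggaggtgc

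The members spanned a wide range of levels. Dbp was the most abundant, with a mean of 68.6 FPKM over the 9 livers, followed by Nr1d1 at 27.2, Ciart at 7.74, Per1 at 5.06, Per3 at 4.08, Clock at 3.36, Per2 at 3.18 and Cry1 at 1.81 FPKM. Arntl and Npas2 stood far below, with means of 0.296 and 0.0347 FPKM. These last 2 did not reach the minimum of a mean of 1 FPKM that a gene needed to be tested, so 8 of the 10 members entered the comparisons.

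Among the activators, Arntl was low in every liver. Its log2 level was 0.17, 0.69 and 0.24 in ND mice 6, 7 and 9, 0.42, 0.34 and 0.36 in HFD mice 1, 2 and 3, and 0.42, 0.38 and 0.28 in PRF 50 mice 3, 9 and 10. The highest and the lowest liver were both in the ND group (mice 7 and 6), and the HFD and PRF 50 livers lay between them. Npas2, the partner of BMAL1 that can stand in for CLOCK, was at 0.11, 0.19 and 0.00 in the ND mice, 0.03, 0.03 and 0.04 in the HFD mice, and 0.00, 0.04 and 0.00 in the PRF 50 mice. It was above 0 in 6 of 9 livers and highest in ND mouse 7, at levels where a few reads set the value. Clock was at 1.55, 2.51 and 2.38 in the ND mice, 1.87, 2.16 and 2.26 in the HFD mice, and 1.86, 2.20 and 2.09 in the PRF 50 mice. Again ND mouse 6 was lowest and ND mouse 7 highest of the 9, and the groups overlapped.

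**Figure D1:**
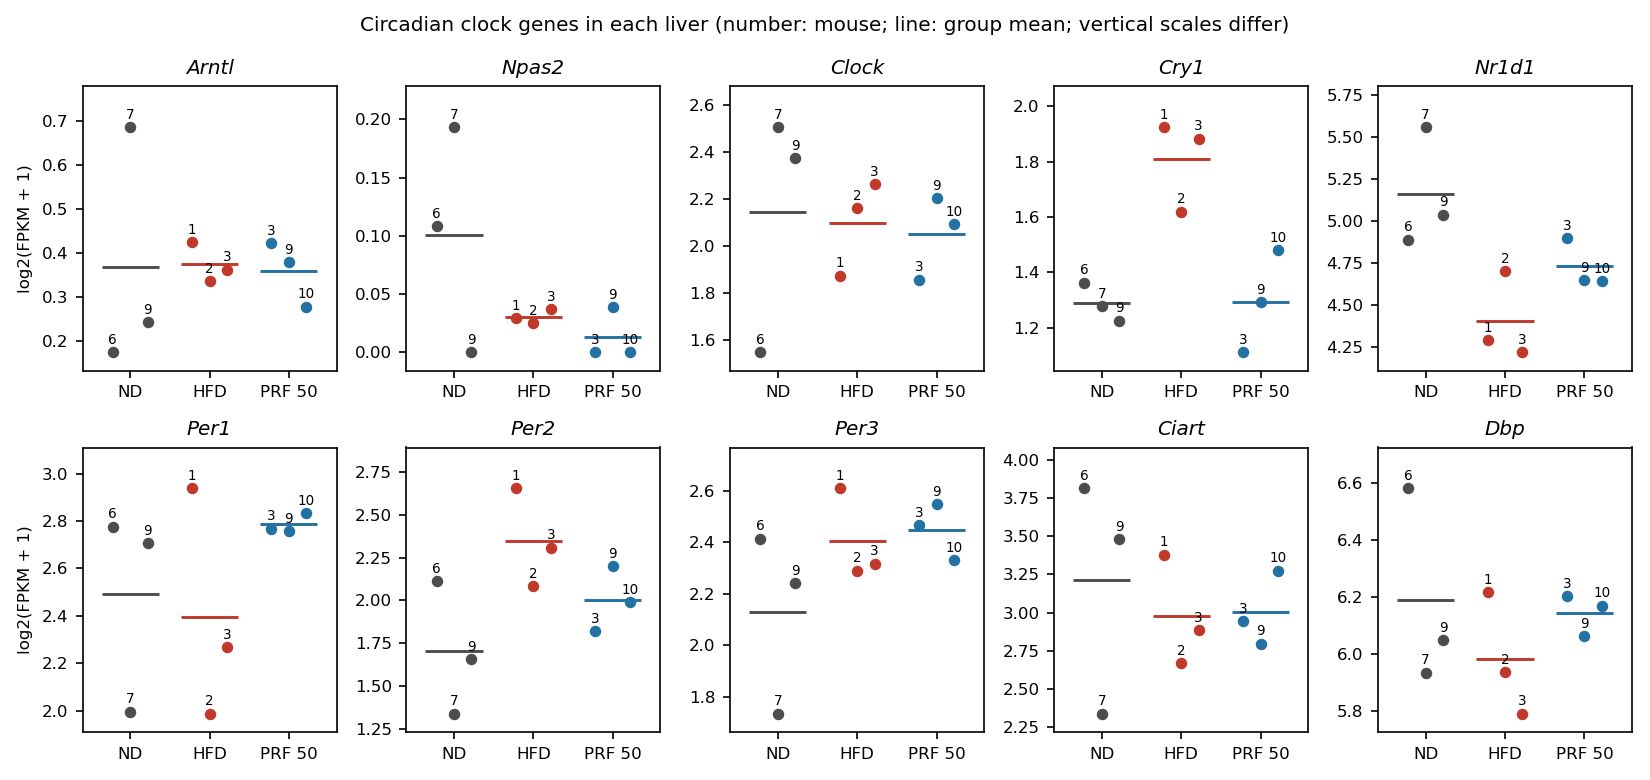
Level of each of the 10 clock genes as log2(FPKM + 1) in each liver (points, with mouse numbers) and the group means (lines), with a scale of its own for each gene. ND mouse 7 is the highest liver for Arntl, Npas2, Clock and Nr1d1 and the lowest for Per2, Per3 and Ciart.

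The repressors differed more. Cry1, a main inhibitor of the activator pair, was at 1.36, 1.28 and 1.23 in ND mice 6, 7 and 9, at 1.93, 1.62 and 1.88 in HFD mice 1, 2 and 3, and at 1.11, 1.29 and 1.48 in PRF 50 mice 3, 9 and 10. All 3 HFD livers lay above all ND and all PRF 50 livers, while the ND and PRF 50 livers overlapped. Nr1d1, whose product represses Arntl, was at 4.89, 5.56 and 5.04 in the ND mice, 4.29, 4.70 and 4.22 in the HFD mice, and 4.90, 4.65 and 4.64 in the PRF 50 mice. The HFD livers all lay below the ND livers, and the PRF 50 livers overlapped with both groups.

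Per2 was at 2.11, 1.34 and 1.66 in the ND mice, 2.65, 2.08 and 2.31 in the HFD mice, and 1.82, 2.20 and 1.99 in the PRF 50 mice. ND mice 7 and 9 had the lowest levels, but ND mouse 6 was above HFD mouse 2, so no pair of groups was apart. Per1, which also responds to glucocorticoids, was at 2.78, 1.995 and 2.71 in the ND mice, 2.94, 1.99 and 2.27 in the HFD mice, and 2.77, 2.76 and 2.83 in the PRF 50 mice. The PRF 50 livers were nearly equal, and the other groups each held at least 1 liver near the lowest level and 1 near the highest. Per3 was at 2.41, 1.73 and 2.24 in the ND mice, 2.61, 2.29 and 2.32 in the HFD mice, and 2.47, 2.55 and 2.33 in the PRF 50 mice. ND mouse 7 stood below the other 8 livers, among which the groups overlapped.

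Ciart, a repressor also known as Chrono, had the widest range of the tested members on the log2(FPKM + 1) scale. Its level was 3.81, 2.34 and 3.48 in ND mice 6, 7 and 9, 3.38, 2.67 and 2.89 in HFD mice 1, 2 and 3, and 2.94, 2.80 and 3.27 in PRF 50 mice 3, 9 and 10. ND mouse 6 was highest and ND mouse 7 lowest, a range of 1.47 on the log2 scale that enclosed both other groups. As a ratio of FPKM values, the highest liver was 3.21 times the lowest for Ciart and 3.46 times for Per2. Dbp, the output factor that carries the rhythm to metabolic genes through D-boxes, was at 6.58, 5.93 and 6.05 in the ND mice, 6.22, 5.94 and 5.79 in the HFD mice, and 6.20, 6.06 and 6.17 in the PRF 50 mice. ND mouse 6 was highest, and the groups overlapped.

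HFD vs. ND asked how the high-fat diet differed from the normal diet. Cry1 was higher in the HFD group by 0.52 on the log2(FPKM + 1) scale (95% interval 0.23 to 0.81, limma adjusted p = 0.113), a scale that understates the fold change of low genes. Nr1d1 was lower, with a difference of −0.76 (−1.22 to −0.30, limma adjusted p = 0.139), and Per2 was higher by 0.65 (0.14 to 1.15, limma adjusted p = 0.231). After Benjamini-Hochberg adjustment over the 9978 genes tested, 0 of 8 members passed 0.05 with limma, against 1.33% of all genes. At an unadjusted p under 0.05 they were 3 of 8 members (these same genes) against 15.1% of all genes, and the groups did not overlap for 2 of 8 (Cry1 and Nr1d1) against 20.7%. The other 5 members had intervals that included 0. They ran from −1.06 to 0.60 for Ciart, from −0.61 to 0.53 for Clock, from −0.75 to 0.56 for Per1, from −0.65 to 0.23 for Dbp and from −0.15 to 0.70 for Per3. The median of the 8 differences was −0.07, against −0.01 over all genes tested, with 3 members higher and 5 lower.

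PRF 50 vs. HFD asked what PRF added on the same diet. It shares the HFD mice with the comparison above, so a chance deviation of these 3 mice enters both, with opposite sign. Cry1 was lower in the PRF 50 group, with a difference of −0.52 (−0.84 to −0.19, limma adjusted p = 0.0948). This was the smallest adjusted p of any member, and 0 of 8 passed 0.05 with limma, against 3.59% of 10084 genes. At an unadjusted p under 0.05, Cry1 made 1 of 8 members against 20.2% of all genes, and it was also the 1 member of 8 whose groups did not overlap, against 26.2%. The interval was −0.02 to 0.67 for Nr1d1, −0.74 to 0.05 for Per2 and −0.13 to 0.91 for Per1. It was −0.44 to 0.50 for Ciart, −0.38 to 0.28 for Clock, −0.12 to 0.45 for Dbp and −0.23 to 0.32 for Per3. The median difference of the members was 0.03, against −0.02 over all genes tested.

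PRF 50 vs. ND compared treated mice on the high-fat diet with mice on the normal diet, and it shares a group with each of the other comparisons. Nr1d1 was lower in the PRF 50 group, with a difference of −0.43 (−0.85 to −0.01, limma adjusted p = 0.392). Without 1 mouse this difference lay from −0.57 to −0.23, smallest without ND mouse 7. With limma, 0 of 8 members passed after adjustment, against 0.458% of 10051 genes. Nr1d1 made 1 of 8 members at an unadjusted p under 0.05, against 12.5% of all genes, and the groups did not overlap for 0 of 8, against 19.9%. The difference in Cry1 was 0.00 (−0.30 to 0.31), and that in Per2 was 0.30 (−0.17 to 0.77, and 0.12 to 0.51 over the fits without 1 mouse). The intervals of Per1 (−0.17 to 0.76), Per3 (−0.10 to 0.73), Dbp (−0.45 to 0.36), Clock (−0.66 to 0.48) and Ciart (−1.01 to 0.60) included 0 as well. None of these intervals shows that the groups were alike.

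**Figure D2:**
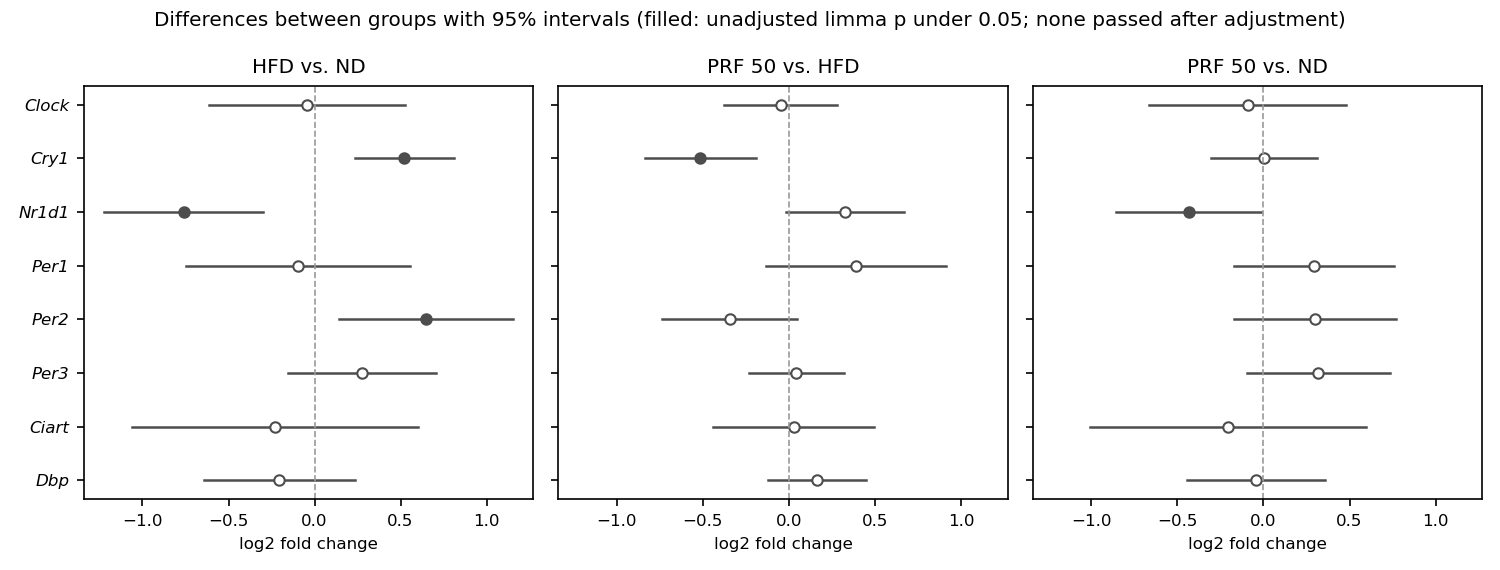
Difference between groups on the log2(FPKM + 1) scale with its 95% interval from limma, for the 8 tested clock genes in the 3 comparisons. Filled points, at an unadjusted p under 0.05, are Cry1, Nr1d1 and Per2 in HFD vs. ND, Cry1 in PRF 50 vs. HFD and Nr1d1 in PRF 50 vs. ND, and none passed after adjustment.

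To place the livers relative to each other, the mean log2 level of the activators (Arntl, Npas2 and Clock) minus that of the 6 genes that peak later in the day (Nr1d1, Dbp, Ciart, Per1, Per2 and Per3) was taken in each liver. Arntl and Npas2, with means of 0.296 and 0.0347 FPKM, were below the minimum for testing, so the mean of the activators rests mainly on Clock. This phase difference was −3.15, −2.02 and −2.66 in ND mice 6, 7 and 9. It was −2.90, −2.44 and −2.41 in HFD mice 1, 2 and 3, and −2.76, −2.63 and −2.75 in PRF 50 mice 3, 9 and 10. The ND mice held both the lowest and the highest value, and the HFD and PRF 50 livers fell between them. The group means were −2.61 ± 0.57 (SD, n = 3) for ND, −2.58 ± 0.28 (SD, n = 3) for HFD and −2.71 ± 0.07 (SD, n = 3) for PRF 50, so the means differed by less than the spread of the ND or the HFD group. Nr1d1 and Per2 enter the same mean, and in HFD vs. ND they differed in opposite directions (−0.76 and 0.65), so they partly cancel. Cry1, higher by 0.52 in that comparison, is not part of the value. Near-equal means therefore do not show that the clock genes of the groups were alike. No test was made of this value, and no hour of collection can be read from it, because no liver of known hour was used here.

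**Figure D3:**
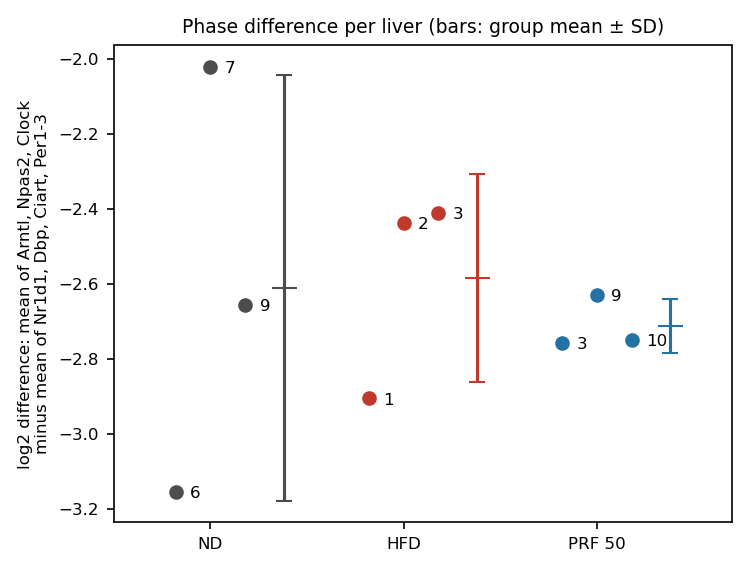
Phase difference in each liver (points, with mouse numbers), on the log2 scale, with the group mean and SD of 3 mice beside them. ND mice 6 and 7 mark the lowest and the highest value, −3.15 and −2.02, and the 3 PRF 50 livers lie between −2.76 and −2.63.

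Single livers deviated across several members at the same time. ND mouse 7 was highest of the 9 livers in Arntl, Npas2, Clock and Nr1d1, lowest in Per2, Per3 and Ciart, and next to lowest in Per1 and Dbp. ND mouse 6 was the reverse for part of these genes, with the highest Dbp and Ciart and the lowest Arntl and Clock. HFD mouse 1 had the highest Per1, Per2, Per3 and Cry1 of the 9 livers. Whether these mice were killed at other hours, ate at other times or differed in another way was not tested, and the labels give no hour for any of them.

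The spread within groups was measured as the SD of the log2 level around the group means, pooled over the 3 groups. The median over the 8 tested members was 0.28, against 0.16 over all 10048 genes whose mean reached 1 FPKM, and 7 of the 8 members were above that median. Ciart had a pooled SD of 0.51, above 97.0% of these genes, Per1 of 0.38, above 92.7%, and Clock of 0.34, above 90.5%. Per2 (0.30, above 87.6%), Nr1d1 (0.27, above 83.6%), Dbp (0.24, above 78.5%) and Per3 (0.24, above 78.2%) followed. Cry1 had 0.15, above 43.0% of the genes, the smallest of the 8 tested members. A count made after the values had been seen showed the largest SD in the ND group for 6 of the 8 members, as for 45.7% of all genes, and the smallest SD in the PRF 50 group for 7 of the 8, as for 34.7% of all genes. The members share the same 9 livers and are not independent of each other, so neither count was tested.

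**Figure D4:**
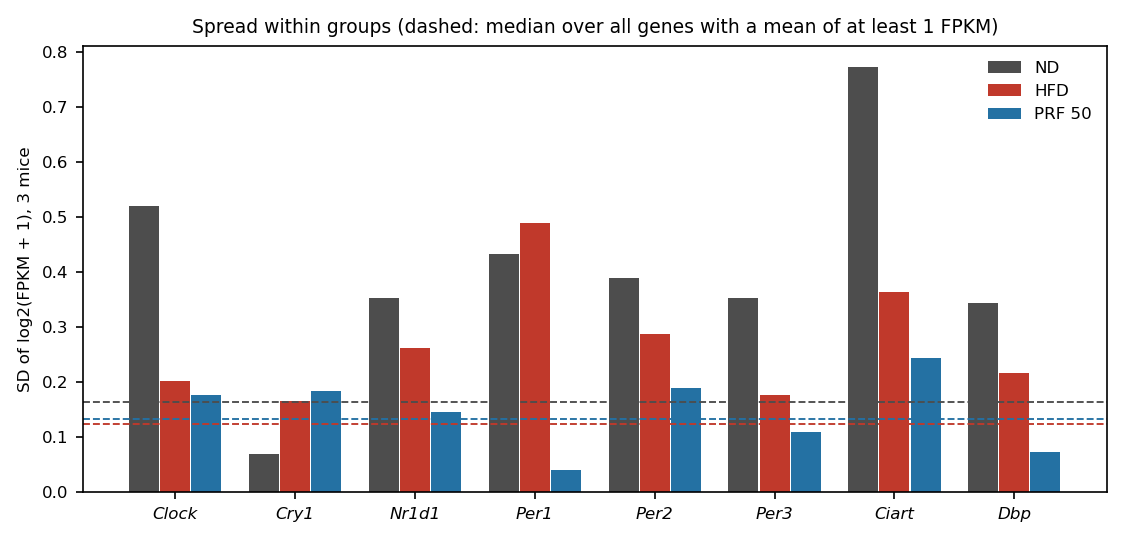
SD of log2(FPKM + 1) over the 3 mice of each group (bars) for the 8 tested clock genes, with the median SD over 10048 genes for each group (dashed lines). Ciart in the ND group has the tallest bar, at 0.77, and Per1 in the PRF 50 group the shortest, at 0.04.

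A list of 20 other clock genes (among them paralogs, BHLHE and PAR bZIP factors, and kinases and ligases that act on PER and CRY) was read from the same fits. The counts of this and the later lists stand beside the shares of all genes that limma called. These were 1.33% in HFD vs. ND, 3.59% in PRF 50 vs. HFD and 0.458% in PRF 50 vs. ND. In HFD vs. ND, 1 of 17 tested genes passed an adjusted p of 0.05. This was Bhlhe41, a repressor that competes for E-boxes, at 1.83, 1.77 and 1.63 in ND mice 6, 7 and 9, 0.55, 1.07 and 0.67 in HFD mice 1, 2 and 3, and 1.24, 0.80 and 0.97 in PRF 50 mice 3, 9 and 10. All HFD and all PRF 50 livers lay below all ND livers. The difference was −0.98 for HFD vs. ND (−1.35 to −0.61, limma adjusted p = 0.0320) and −0.74 for PRF 50 vs. ND (−1.08 to −0.41, limma adjusted p = 0.0879), and the gene was too low to be tested in PRF 50 vs. HFD. The first of these calls held when HFD mouse 2 was left out and was lost without any other of the 6 mice, with adjusted p between 0.0282 and 0.133 over the fits without 1 mouse.

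For PRF 50 vs. HFD, Bhlhe40 (−0.53, −0.82 to −0.23), Hlf (−0.52, −0.84 to −0.20) and Prkaa2 (−0.33, −0.53 to −0.12) of this list had an unadjusted p under 0.05 and did not pass after adjustment with limma. In PRF 50 vs. ND, limma called 0 of 17 tested genes of the list, with 3 at an unadjusted p under 0.05 (Bhlhe41, Bhlhe40 and Fbxl21). The list's median difference was 0.12 in HFD vs. ND, −0.07 in PRF 50 vs. HFD and 0.06 in PRF 50 vs. ND, against −0.01, −0.02 and −0.03 over all genes tested.

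Of 23 names of genes known to cycle in mouse liver downstream of the clock, 22 were in the tables. The other, Noct, is a second name of the listed Ccrn4l, so no gene of the list was missing. In PRF 50 vs. HFD, 2 of the 22 tested passed, against 3.59% of all genes, and both were lower. In all, 6 were higher and 16 lower, with a median of −0.34 against −0.02 over all genes. Klf10, a clock-controlled repressor of metabolic genes, was at 4.42, 3.72 and 4.12 in the ND mice, 3.32, 3.63 and 3.41 in the HFD mice, and 2.75, 2.48 and 2.15 in the PRF 50 mice. The groups were apart from each other, with ND highest and PRF 50 lowest. Klf10 fell in PRF 50 vs. HFD (−0.99, −1.37 to −0.61, limma adjusted p = 0.0294) and in PRF 50 vs. ND (−1.63, −2.12 to −1.14, limma adjusted p = 0.0269), where it was the 1 gene called of 19 tested. Wee1, a kinase of the cell cycle with rhythmic expression, was at 3.19, 2.38 and 2.64 in the ND mice, 3.27, 3.18 and 3.39 in the HFD mice, and 2.60, 2.58 and 2.89 in the PRF 50 mice. The PRF 50 livers lay below the HFD livers, with a difference of −0.59 (−0.86 to −0.32, limma adjusted p = 0.0411), and the ND livers overlapped with both. Leaving out 1 mouse ended the Klf10 call in 4 of 6 fits of PRF 50 vs. HFD (without HFD mouse 1, 2 or 3 or PRF 50 mouse 9, adjusted p up to 0.0947) and in 5 of 6 of PRF 50 vs. ND (all but PRF 50 mouse 10, up to 0.106). It ended the Wee1 call in 5 of 6 (all but PRF 50 mouse 10, up to 0.140). In HFD vs. ND, limma called 0 of 22 genes of this list, with 8 at an unadjusted p under 0.05, among them Elovl3 (−1.18, −1.69 to −0.68, adjusted p = 0.0506). Rgs16 and Cyp7a1 of this list are among the genes that the study picked from these samples, so their values are not independent of that choice.

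**Figure D5:**
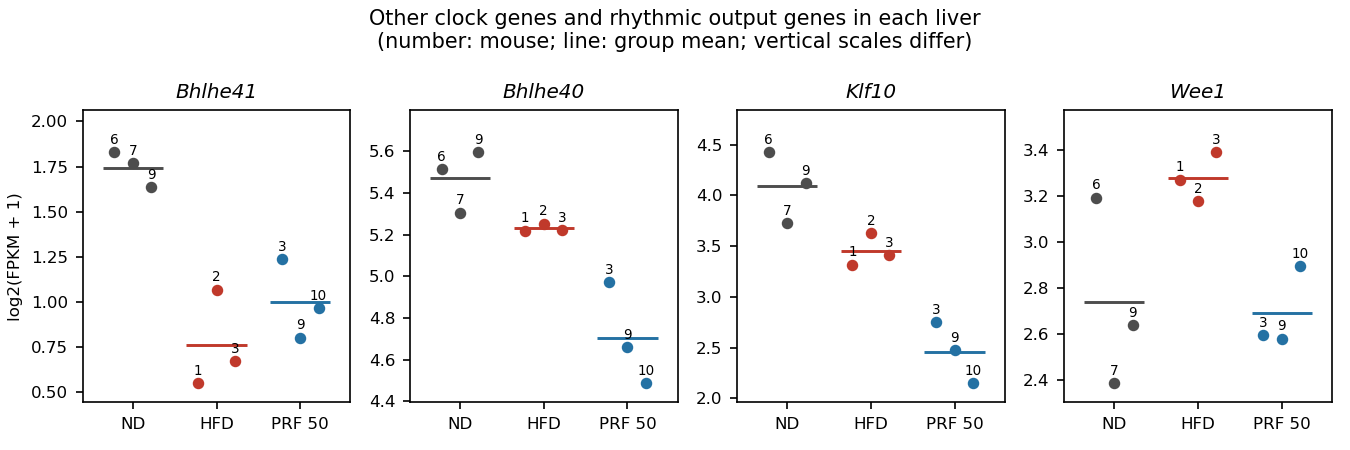
Level as log2(FPKM + 1) of Bhlhe41, Bhlhe40, Klf10 and Wee1 in each liver (points, with mouse numbers) and group means (lines), with a scale of its own for each gene. The ND livers are highest for Bhlhe41, Bhlhe40 and Klf10, and the PRF 50 livers are lowest for Bhlhe40 and Klf10.

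Genes that follow feeding and fasting were read as well, since meals set the phase of the liver clock. Of 13 feeding-induced genes of lipid and glucose metabolism, 12 were tested in PRF 50 vs. HFD and all 12 were lower. Against 3.59% of all genes, 3 of the 12 passed. These were Thrsp (−1.97, −2.46 to −1.48, limma adjusted p = 0.0133), Me1 (−1.72, −2.20 to −1.24, limma adjusted p = 0.0148) and Pklr (−1.19, −1.58 to −0.80, limma adjusted p = 0.0211). The median of the list was −0.78. Me1 was also the 1 gene called of 12 in PRF 50 vs. ND (−1.95, −2.56 to −1.35, limma adjusted p = 0.0302), with a median of −0.85, and in HFD vs. ND limma called 0 of 12, with 3 at an unadjusted p under 0.05 and a median of −0.11. Among 18 fasting-induced genes, 7 were higher and 11 lower in PRF 50 than in HFD, with a median of −0.16. Asns was higher (1.84, 1.07 to 2.61, limma adjusted p = 0.0342) and G6pc lower (−2.19, −3.06 to −1.31, limma adjusted p = 0.0321). The list called 1 of 17 in HFD vs. ND (Cpt1a, 0.60, 0.34 to 0.85, limma adjusted p = 0.0483) and 1 of 16 in PRF 50 vs. ND (Txnip, −1.21, −1.55 to −0.88, limma adjusted p = 0.0217). Thrsp, Me1, Pklr, G6pc and Txnip were also picked by the study from these samples. The part of feeding in the levels of the clock genes was not tested.

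Lists for other inputs to the clock were read in the same way. Of 17 heat-induced and cold-induced genes, which follow body temperature, 1 of 16 tested passed in PRF 50 vs. HFD (Chordc1, −0.44, −0.63 to −0.25, limma adjusted p = 0.0351), against 3.59% of all genes. There 13 of the 16 were lower, and 7 had an unadjusted p under 0.05. Limma called 0 of 16 in HFD vs. ND and 0 of 16 in PRF 50 vs. ND, with 3 and 2 at an unadjusted p under 0.05. The cold-induced Cirbp was lower in HFD than in ND by limma's estimate (−0.44, −0.79 to −0.08) and higher in PRF 50 than in HFD (0.44, 0.08 to 0.80), and neither passed after adjustment. Among 16 glucocorticoid-induced genes, which share Per1 with the members, Lcn2 was the 1 gene called of 15 in HFD vs. ND (2.29, 1.45 to 3.12, limma adjusted p = 0.0309), and the study picked it as well. This stands against 1.33% of all genes, and 7 of the 15 had an unadjusted p under 0.05. The other comparisons called 0 of 15 (PRF 50 vs. HFD) and 0 of 13 (PRF 50 vs. ND) with limma, with 5 and 5 at an unadjusted p under 0.05. Of 16 immediate early genes, Myc was the 1 gene called of 11 in HFD vs. ND (−1.26, −1.73 to −0.79, limma adjusted p = 0.0318), where 10 of the 11 were lower and 3 had an unadjusted p under 0.05, and limma called 0 of 10 and 0 of 11 in PRF 50 vs. HFD and PRF 50 vs. ND, with 2 and 4 at an unadjusted p under 0.05.

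Markers of cell types were read beside these comparisons. Of 12 macrophage and Kupffer cell markers, 12 were higher in PRF 50 than in HFD. All except Lyz2 and Marco passed, which made 10 of 12 against 3.59% of all genes. Limma called 0 of 12 in PRF 50 vs. ND, with all 12 higher and at an unadjusted p under 0.05. In HFD vs. ND it called 0 of 12, with 0 at an unadjusted p under 0.05. The summed level was 108, 203 and 266 FPKM in ND mice 6, 7 and 9, 138, 222 and 221 FPKM in HFD mice 1, 2 and 3, and 751, 425 and 488 FPKM in PRF 50 mice 3, 9 and 10. The 3 PRF 50 livers were above the other 6, Cd5l was the most abundant marker, with a mean of 54.1 FPKM, and none of the 12 was at 0 in all livers. C1qa, C1qb, C1qc, Cd5l, Clec4f, Csf1r, Lyz2, Marco and Vsig4 were picked by the study from these samples. Limma called 0 genes of the hepatocyte (11 tested), endothelial (8), stellate (6 or 7), cholangiocyte (1 or 2), and lymphocyte and neutrophil (3) lists in any comparison. At an unadjusted p under 0.05 these lists held 2, 2, 1, 0 and 0 genes in HFD vs. ND, 3, 0, 1, 0 and 2 in PRF 50 vs. HFD, and 0, 0, 0, 1 and 1 in PRF 50 vs. ND. None of the 5 adipocyte markers was high enough to be tested. The clock runs in hepatocytes and in macrophages, and the part of the higher macrophage marker RNA in the levels of the clock genes was not tested.

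Many calls on genes outside the members were lost when 1 mouse was left out. Of the 20 list genes called in PRF 50 vs. HFD, 20 were no longer called without HFD mouse 3, 18 without HFD mouse 2 and 17 without PRF 50 mouse 3. It was 10 without HFD mouse 1, 10 without PRF 50 mouse 10, and 6 without PRF 50 mouse 9, where 19 of the 20 were tested. Of the 4 called in HFD vs. ND, 4 were lost without HFD mouse 3 or ND mouse 6, and of the 3 in PRF 50 vs. ND, 3 were lost without ND mouse 6, ND mouse 7 or PRF 50 mouse 3. None of the 27 calls held in every fit without 1 mouse, and none changed sign. The differences themselves moved less, from −2.11 to −1.72 for Thrsp, from −1.85 to −1.50 for Me1 and from 1.09 to 1.37 for Vsig4 in PRF 50 vs. HFD. With no minimum level, where more genes enter the adjustment, 15 of the 20, 4 of the 4 and 3 of the 3 calls were lost in PRF 50 vs. HFD, HFD vs. ND and PRF 50 vs. ND. With all 9 mice in 1 fit it was 7 of 20, 2 of 4 (Lcn2 reached a limma adjusted p of 0.481) and 1 of 3. Quantile normalization lost 3 of 20, 0 of 4 and 1 of 3. A fit without 1 mouse also has fewer mice, and what the smaller group adds to the loss was not tested.

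The genes with the most similar course over the 9 livers were found by the root mean square difference of centred log2 levels, among the same 10048 genes. Nearest to Per1 were Cebpd (0.16), Tsc22d3 (0.16) and Mapre2 (0.17), where Per1 itself deviated by 0.35 from its mean, and nearest to its mirror image were Rhbdl1 (0.16), St5 (0.17) and Gldc (0.18). Tsc22d3, which stands on the lists of rhythmic and of glucocorticoid-induced genes, was at 5.61, 4.36 and 4.96 in ND mice 6, 7 and 9, 5.53, 4.52 and 4.91 in HFD mice 1, 2 and 3, and 5.29, 5.12 and 5.38 in PRF 50 mice 3, 9 and 10. As for Per1, ND mouse 7 and HFD mouse 2 had the lowest levels and the PRF 50 livers were close together. Nearest to Dbp, which deviated by 0.21, were Vamp8 (0.06), Zfand2b (0.07) and Fam50a (0.08), with Lysmd3 (0.07), Ate1 (0.07) and Zfp273 (0.07) opposite. For Arntl, which deviated by 0.14, they were Dsp (0.06), Itfg3 (0.06) and Tmtc4 (0.07), with Cast (0.06), Aph1a (0.08) and Gnl1 (0.08) opposite. Arntl had a mean of only 0.296 FPKM, below the minimum for testing, and genes that vary little also lie near such a course. Itfg3 itself deviated by 0.09. Whether any of these genes is under the clock in these livers was not tested.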

How the data were processed

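Liver RNA-Seq of 9 mice (3 ND, 3 HFD and 3 PRF 50) was used, with poly(A) RNA, directional libraries and paired ends. The authors used FASTX_Trimmer and BBMap for trimming and TopHat for mapping (mm10 in the submitters' processing notes), took FPKM from Cufflinks and applied a geometric normalization stated to be done with EdgeR. The deposited values are on a log2 scale and were read as log2(FPKM + 1), the constant being inferred from a lowest value of 0. The annotation and tool versions are not given in the sources used here. Median-of-ratios size factors of the deposited values lay between 0.998 and 1.01.

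Groups were compared with limma 3.58.1 in R 4.3.3 (functions lmFit and eBayes, the latter with its trend option) on the 6 mice of a comparison. A gene was tested when its mean over these mice reached 1 FPKM, and every p in the text is from this test, two-sided. P-values were adjusted by Benjamini-Hochberg over all genes tested, with a threshold of 0.05. Tables were handled in Python 3.11.15 with pandas 2.3.3 and NumPy 2.4.6, and the test was checked on simulated data. Named were all members, from each other list the genes called and up to 3 more with the smallest unadjusted p in a comparison, and the 3 genes nearest and opposite to Arntl, Dbp and Per1. Some genes that this rule takes are not reported here. The members and lists were chosen with earlier results of these data known. As alternatives, the fit was repeated with the 9 mice together, without any 1 mouse, on log2 values with 0.1 added in place of 1, with the minimum level dropped or raised to 10 FPKM, after median-of-ratios or quantile scaling, and with no trend in eBayes, and for the phase difference the omission of Per2 or Npas2. Leaving out each mouse for the phase difference, and all alternatives for genes outside the members, were chosen after seeing the data. Read counts were not used here, so counting error is unknown.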

Additional observations from a re-analysis of the deposited data

How the results depend on the processing

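No clock gene had an adjusted p under 0.05 in any comparison under any alternative, so the count stayed at 0. The smallest adjusted p of a member was 0.0502, for Per1 in PRF 50 vs. HFD without HFD mouse 1. Of 294 alternative values of the members' 24 differences, 25 had the other sign, all for differences whose interval included 0.

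In HFD vs. ND, the fits without 1 mouse gave from −0.34 to 0.14 for Clock (0.0691, 0.138 and 0.0723 with the other sign), from −0.37 to 0.11 for Per1 (0.109, 0.0458 and 0.0109) and from −0.67 to 0.07 for Ciart (0.0685). In PRF 50 vs. HFD they gave from −0.16 to 0.05 for Clock (0.0336 and 0.0485), from −0.01 to 0.15 for Per3 (−0.0144, −0.00065 and −0.0057) and from −0.13 to 0.23 for Ciart (−0.128, −0.0199 and −0.108). In PRF 50 vs. ND they gave from −0.39 to 0.09 for Clock (0.0897, 0.0238 and 0.0048) and from −0.09 to 0.10 for Cry1 (−0.00074, −0.0267 and −0.0879, and −0.0711 after quantile normalization). They gave from −0.17 to 0.15 for Dbp (0.153, and 0.0872 after quantile normalization) and from −0.64 to 0.09 for Ciart (0.0947). The larger differences kept their sign. Without 1 mouse, Cry1 lay from 0.46 to 0.62 in HFD vs. ND and from −0.61 to −0.42 in PRF 50 vs. HFD, and Nr1d1 from −0.91 to −0.56 in HFD vs. ND. Others kept their sign but moved by more than 1.5 times without 1 mouse. These were Per3 (0.08 to 0.42) and Dbp (−0.33 to −0.01) in HFD vs. ND, and Per1 (0.18 to 0.66), Per2 (−0.48 to −0.19) and Dbp (0.07 to 0.28) in PRF 50 vs. HFD. In PRF 50 vs. ND they were Nr1d1 (−0.57 to −0.23), Per1 (0.04 to 0.44), Per2 (0.12 to 0.51) and Per3 (0.12 to 0.46).

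The number of all genes called moved far more. It was 133 in HFD vs. ND and 35 to 140 without 1 mouse, lowest without HFD mouse 3 and also low without HFD mouse 2 (41), ND mouse 7 (39) or ND mouse 6 (63), and 37 with no minimum level. It was 362 in PRF 50 vs. HFD and 15 to 242 without 1 mouse, lowest without HFD mouse 3 and then HFD mouse 2 (31), PRF 50 mouse 3 (40), PRF 50 mouse 10 (168) and HFD mouse 1 (215), and 126 with no minimum level. It was 46 in PRF 50 vs. ND and 4 to 71 without 1 mouse, lowest without ND mouse 7 and then PRF 50 mouse 3 (8), ND mouse 6 (17) and PRF 50 mouse 9 (26), highest without PRF 50 mouse 10, 11 with no minimum level and 107 with all 9 mice in 1 fit.

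The mean phase difference of HFD minus ND was 0.03, with −0.08 to 0.17 over the other scalings and gene choices (lowest with 0.1 added in place of 1, highest without Per2). That of PRF 50 minus HFD was −0.13 (−0.22 without Per2 to −0.13), and that of PRF 50 minus ND −0.10 (−0.28 with 0.1 added to −0.05 without Per2). Without 1 mouse, an alternative chosen after seeing the data, they lay from −0.25 to 0.32, from −0.29 to −0.04 and from −0.37 to 0.19. No paired analysis was possible because the mouse numbers name animals and the groups share at most 1 number.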
